A study of Homo sapiens with 14 samples.

Results

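KMT2D peaks were examined around the genes of 2 enzymes that act in sequence in prostaglandin E2 synthesis, PTGES on chromosome 9 and PTGS2 on chromosome 1. The PTGES block was the stretch of chromosome 9 from 132.05 to 132.60 Mb (hg19), which contains PTGES at 132.501 to 132.515 Mb. The PTGS2 window reached 50 kb to either side of PTGS2, which lies at 186.641 to 186.650 Mb. Peaks were selected by the position of their summit, and the block itself was chosen from peaks of high fold enrichment already known to lie there, so its number of peaks and their heights are descriptions without a test. The block held 26 of the 13808 peaks in the list, and the PTGS2 window held 0.

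The list came from 1 chromatin immunoprecipitation sequencing (ChIP-seq) library, made with an antibody to the histone methyltransferase KMT2D. The cells were KMT2D-WT SCC23, a cell line from a squamous carcinoma of the head and neck, labelled as a low glucose condition, described in the study as 6 hours of glucose deprivation. KMT2D-KO and control lines were made by transfecting a Cas9 plasmid with a guide to KMT2D or to LacZ. The series has 14 samples, which also cover an input and histone antibodies in KMT2D-WT and KMT2D-KO cells. Those libraries were not analysed here, and no genotype, antibody or glucose condition was compared. There were no replicates, and all intervals at the 95% level cover counting error only. In a bulk library, binding in fewer cells and less binding per cell cannot be told apart.

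PTGS2, also known as COX-2, is the inducible cyclooxygenase that turns arachidonic acid into prostaglandin H2. PTGES, the microsomal prostaglandin E synthase, then converts prostaglandin H2 into prostaglandin E2, a lipid mediator known for its part in epithelial inflammation and in squamous carcinomas. Both genes are typically induced by inflammatory signals. KMT2D places methyl groups on lysine 4 of histone H3, mainly at enhancers, and a KMT2D peak marks where the protein was enriched on chromatin without saying which gene it acts on.

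The promoters of the pair are shown because a KMT2D peak lay beside the 5′ end of PTGES and none lay near PTGS2. Each line gives the 250 bases before the transcription start from RefSeq (GRCh38.p14), read 5′ to 3′ on the minus strand, at chr9:129753043-129753292 for PTGES and chr1:186680424-186680673 for PTGS2. These positions belong to another build than the peaks and were not set against them, so no peak was shown to cover these bases. Capitals mark a GC box (GGGCGG) in PTGES and a TATA box (TATAAA) in PTGS2.
PTGES: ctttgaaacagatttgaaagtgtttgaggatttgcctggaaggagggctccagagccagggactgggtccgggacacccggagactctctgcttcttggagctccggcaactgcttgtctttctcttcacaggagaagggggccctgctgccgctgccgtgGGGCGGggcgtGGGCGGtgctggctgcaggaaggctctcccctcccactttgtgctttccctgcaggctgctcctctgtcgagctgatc
PTGS2: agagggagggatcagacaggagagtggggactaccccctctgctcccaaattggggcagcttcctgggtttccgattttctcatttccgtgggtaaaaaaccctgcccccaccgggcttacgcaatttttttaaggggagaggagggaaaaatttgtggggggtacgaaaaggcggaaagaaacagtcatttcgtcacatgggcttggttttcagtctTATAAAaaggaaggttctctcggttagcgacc

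The PTGES promoter held 2 GC boxes, starting 89 and 78 bases before the start, and no TATA box. In PTGS2 a single TATA box began 32 bases before the start, and no GC box was found. On either strand, a GC box was present in 42.6% of 35116 promoters of this length and a TATA box in 10.7%. Neither promoter had an AP-1 motif (TGANTCA, in 6.57% of promoters) or an E box of the letters CACGTG (6.34%). The search in PTGS2 was added after its lack of peaks was known. G and C made up 61.2% of the bases in PTGES and 50.4% in PTGS2, beside a median of 58% over all promoters. These matches describe the letters only, and they were not tested as binding sites.

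At PTGES, 5 peaks lay inside the gene or within 50 kb of it. PTGES is read from the minus strand, so its 5′ end is the end with the higher coordinate, and its span was known to the nearest kb. The highest of these peaks was on the 5′ side, at chr9:132524218-132525366, with its summit 9.95 kb beyond the 5′ end. There, 114 ChIP fragments covered the summit (exact Poisson interval 94.0 to 136.9). Its fold enrichment, which is the ratio of scaled ChIP pileup to local background with a pseudocount of 1 on each, was 21.2 (17.6 to 25.4). It ranked 9 among all 13808 peaks. The local background at this peak, solved from its fold enrichment and p-value, was 1.00 times the genome-wide level.

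Both peaks inside the gene were close to its 5′ end and far lower. The nearer, at chr9:132514174-132514525, had its summit 0.662 kb from the 5′ end and ended 0.475 kb short of it. Both distances are approximate, since the span was known only to the nearest kb. This nearer peak carried 47 fragments (34.5 to 62.5) and a fold enrichment of 5.90 (4.42 to 7.74). The other, at chr9:132512408-132512754, had its summit 2.39 kb from the 5′ end, with 57 fragments (43.2 to 73.9) and a fold enrichment of 4.54 (3.49 to 5.82). Their intervals of fold enrichment overlapped each other and lay wholly below that of the peak at 9.95 kb. The local background was 2.01 and 3.65 times the genome-wide level at these peaks, and the one with more fragments had the lower fold enrichment. The part of the background in these values was not tested. Whether they lie in an exon or an intron, and whether the nearer one reaches the start site itself, was not analysed here, since the annotation at hand was of another build.

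Further on the 5′ side, 2 more peaks lay within 50 kb, both lower than the one at 9.95 kb. A peak at chr9:132535988-132536203, with its summit 21.1 kb from the 5′ end, had 35 fragments (24.4 to 48.7) and a fold enrichment of 5.80 (4.17 to 7.91). The next, at 24.6 kb, had 17 fragments (9.90 to 27.2), a fold enrichment of 3.56 and a q-value of 0.217, above the threshold of 0.05. On the 3′ side no peak was listed for 93.1 kb, from position 132419355 to 132512407, the widest of the 25 gaps between neighbouring peaks of the block. That stretch takes in most of the PTGES gene body and 81.6 kb beyond its 3′ end. Among protein-coding genes in RefSeq, PRRX2, ASB6, C9orf50 and NTMT1 follow in order on the 3′ side of PTGES, and TOR1B, TOR1A, C9orf78 and USP20 on the 5′ side. No peak was assigned to any of them.

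**Figure D1:**
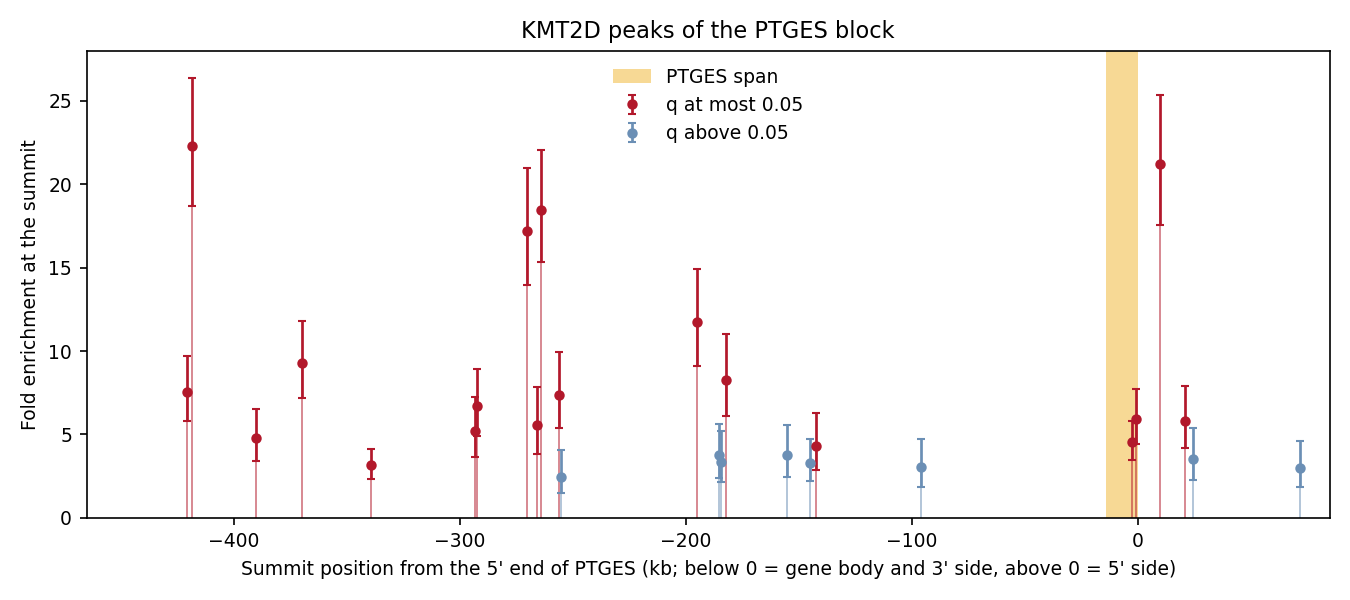
Fold enrichment at the summit (y axis) of the 26 KMT2D peaks of the PTGES block against distance from the 5′ end of PTGES in kb (x axis), with bars for the 95% Poisson interval of the fragments and the PTGES span shaded. Of the 5 peaks of at least 10-fold, 4 stood on the 3′ side and 1, at 21.2, stood 9.95 kb beyond the 5′ end.

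The highest peak of the block was not the one beside PTGES. At chr9:132095850-132097156, 404 kb beyond the 3′ end of PTGES, 131 fragments (109.5 to 155.5) covered the summit and fold enrichment was 22.3 (18.7 to 26.3). It ranked 7 in the list. Its interval overlapped that of the peak at 9.95 kb from PTGES, so the heights of these summits, 428 kb apart, differed by less than their counting error. A smaller peak with 57 fragments and a fold enrichment of 7.56 (5.81 to 9.70) lay 0.954 kb from it.

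A pair of high peaks stood midway along the 3′ side. At chr9:132250184-132252091, 117 fragments (96.8 to 140.2) gave a fold enrichment of 18.5 (15.3 to 22.03). At chr9:132244285-132246797, 92 fragments (74.2 to 112.8) gave 17.2 (13.9 to 21.0), over the widest peak of the block (2513 bp). Their intervals overlapped, and their summits lay 250 and 256 kb from the 3′ end of PTGES. The fifth peak of at least 10-fold, at chr9:132319224-132320379, had 62 fragments (47.5 to 79.5) and a fold enrichment of 11.7 (9.11 to 14.9), with an interval below those of the other 4 apart from a small overlap with the peak at 17.2.

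The remaining peaks among the 10 highest of the block lay between 6.68 and 9.28. At chr9:132145132-132145606 fold enrichment was 9.28 (7.20 to 11.8) with 62 fragments. A peak of 2282 bp at chr9:132331136-132333417 reached 8.29 (6.13 to 10.997) with 43 fragments. Values of 7.38 (5.36 to 9.95) and 6.68 (4.91 to 8.92) were found at chr9:132257953-132259453 and chr9:132222305-132222973. The intervals of these peaks and of the one at 7.56 all overlapped, so no order among them could be read.

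The other 12 peaks of the block, neither within 50 kb of PTGES nor among its 10 highest, had fold enrichments from 2.47 to 5.56 and from 11 to 47 fragments. Of these, 5 had a q-value of at most 0.05. The weakest, with 11 fragments and a q-value of 1, lay 0.234 kb from a neighbouring peak, and 11 was also the smallest number of fragments under any peak of the list. At chr9:132175206-132176585 a peak of 1380 bp had 47 fragments but a fold enrichment of 3.15 (2.36 to 4.13), where the local background was 4.56 times the genome-wide level, the highest of the block. That background was 5 on the scale of the ChIP pileup, and its error is not in the interval.

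Set beside the whole list, the block held many peaks for its length and several that were both high and wide. The list holds 58.5% of peaks with a q-value of at most 0.05, and the block had 18 of 26 (69.2%). A fold enrichment of at least 10 was reached by 5 of the 26 (19.2%) and by 4.18% of all peaks. Widths above 1000 bp were found in 8 of the 26 (30.8%) and in 5.48% of all peaks. All 5 peaks of at least 10-fold were wider than 1000 bp, and 3 further wide peaks had lower values. Since the block was picked with its high peaks known, these shares say nothing beyond the choice. The median fold enrichment was 5.37 in the block, 3.76 in the other 611 peaks of chromosome 9 and 3.93 in the list.

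**Figure D2:**
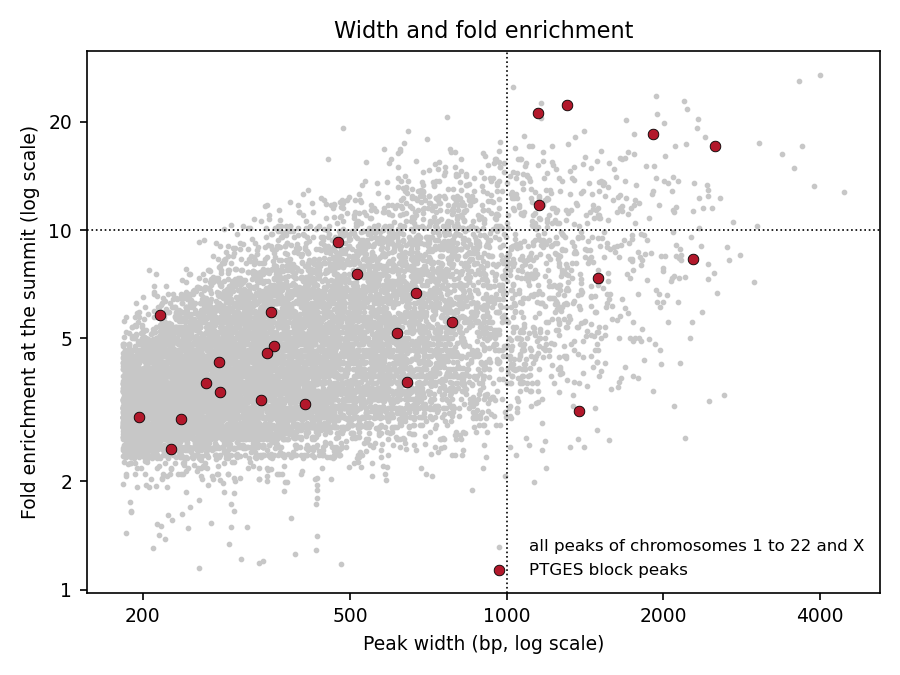
Peak width in bp (x axis, log scale) against fold enrichment at the summit (y axis, log scale) for the 26 PTGES block peaks in red and all peaks of chromosomes 1 to 22 and X in grey. Dotted lines mark 1000 bp and 10-fold, and the 5 block peaks above 10-fold all lie to the right of 1000 bp.

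Width and height went together within the block, with a Spearman rho of 0.69 over its 26 peaks, beside 0.48 over all 13808. The points share 1 library. Peaks were called by a p-value cutoff, so a higher summit tends to give a wider peak by construction. The block was also picked for its high peaks, so its rho is not a trait set apart from the list. The median width was 496 bp in the block and 341 bp in the list. In all, the peaks of the block covered 20.4 kb of its 0.55 Mb.

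Local background, which enters the fold enrichment as its denominator, was at least 2 times the genome-wide level at 4 of the 26 peaks (15.4%) and at 18.6% of all peaks. The 5 peaks of at least 10-fold had backgrounds between 1.00 and 1.34 times that level. Of the 4 peaks with a raised background, 2 were those inside PTGES. The pseudocount held the values down where the background was low. Without it, the ratio of scaled fragments to background was 38.8 at the highest peak and 39.6 at the peak 9.95 kb from PTGES, which turned the order of these 2 peaks, and it was 8.13 and 5.42 at the peaks inside the gene.

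**Figure D3:**
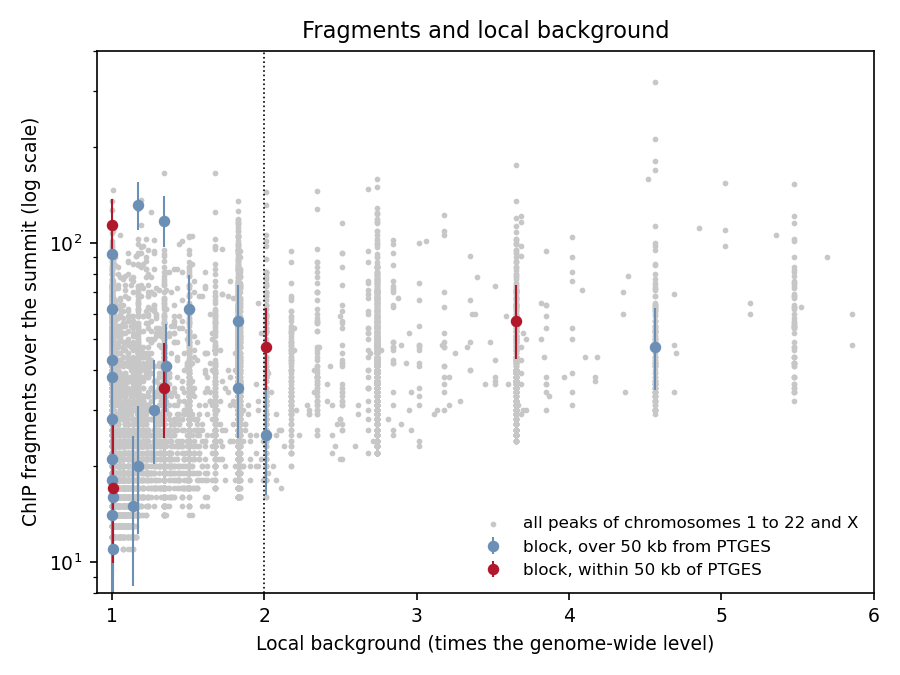
Local background in multiples of the genome-wide level (x axis) against ChIP fragments over the summit (y axis, log scale, bars are 95% Poisson intervals), with block peaks within 50 kb of PTGES in red, the other block peaks in blue and all peaks of chromosomes 1 to 22 and X in grey (the few above 6 on the x axis are not drawn). The peak with 114 fragments near PTGES sits at a background of 1.00, while the peaks inside the gene sit at 2.01 and 3.65.

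Peak density in the block was 47.3 per Mb (95% Poisson interval 30.9 to 69.3). It was 4.38 per Mb (4.04 to 4.74) over the rest of chromosome 9, a ratio of 10.8. For peaks of at least 10-fold alone, the block had 9.09 per Mb (2.95 to 21.2) and the rest of chromosome 9 had 0.172 (0.110 to 0.256). When chromosomes 1 to 22 and X were tiled into 5506 windows of 0.55 Mb, 10 windows (0.182%) held at least 26 peaks, and the fullest held 45. At least 5 peaks of 10-fold were found in 6 windows, and 92.4% of windows had none. The Poisson intervals treat peaks as separate events, although 6 of the 25 gaps between neighbours in the block were under 1 kb. The block was placed around its peaks, while the rest of chromosome 9 and the tiles were not. The densities, their ratio and these ranks are therefore a description.

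The peaks of the block gathered in groups with bare stretches between them. The median gap between neighbours was 9.36 kb, and 6 of the 25 gaps were under 1 kb. Stitching neighbours over gaps of up to 10 kb gave 4 clusters of at least 3 peaks, which held 15 of the 26. The largest held 5 peaks over 15.6 kb, at chr9:132244285-132259914, and contained both peaks midway along the 3′ side given above. A cluster of 4 peaks followed at chr9:132319224-132333417, and one of 3 low peaks at chr9:132359795-132372908. The PTGES cluster, at chr9:132512408-132525366, consisted of both peaks inside the gene and the peak at 9.95 kb. By the fold enrichment of its highest peak it ranked 6 of 981 clusters in the list, while its 3 peaks were the fewest that a cluster could have. Of the 981 clusters, 21.6% held at least as many peaks as the largest in the block. The shares of all listed peaks in clusters and of all gaps under 1 kb are not given here. The counts therefore do not show whether such grouping is particular to the block.

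The edges of the block fell in gaps between peaks. Just outside, a peak 9.17 kb beyond the lower edge had a fold enrichment of 6.43 with 65 fragments over a background of 2.74 times the genome-wide level, and a peak 25.6 kb beyond the upper edge had 8.20 with 45 fragments. The first and last peaks inside the edges had 7.56 and 2.99.

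PTGS2 differed from PTGES in that the list gave no peak inside the gene or within 50 kb. Nearest to it, on the 5′ side, was a peak at chr1:186704637-186704922, with its summit 54.8 kb from the 5′ end. It had 24 fragments (15.4 to 35.7), a fold enrichment of 3.38 (2.28 to 4.86) and a q-value of 0.0782. Close behind, at chr1:186706217-186706810 and 56.7 kb from the 5′ end, a peak had 19 fragments (11.4 to 29.7), a fold enrichment of 3.82 (2.48 to 5.70) and a q-value of 0.0488. These lay 4.79 and 6.70 kb beyond the window, so the count of 0 rests on where the window ended. Both were weak, with intervals far below that of the peak 9.95 kb from PTGES. Their intervals overlapped those of the lower peaks inside PTGES or within 50 kb of it, at 3.56 to 5.90.

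On the 3′ side of PTGS2 the nearest peak was 111.9 kb away, with 21 fragments, a fold enrichment of 3.94 (2.60 to 5.79) and a q-value of 0.0943. The stretch without a peak around PTGS2 thus measured 175.5 kb, from position 186529185 to 186704636. Gaps at least as long made up 20.2% of the 1386 gaps on chromosome 1, where the median gap was 24.6 kb. This share counts gaps and not bases. A given gene falls more often in a long gap than in a short one, so the share does not say how unusual the stretch is. Past the pair of weak peaks on the 5′ side came a longer stretch of 1290 kb without a peak. PLA2G4A, the cytosolic phospholipase that releases arachidonic acid, is the next protein-coding gene on the 5′ side of PTGS2 in RefSeq, and PDC is the next on the 3′ side.

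A window without peaks was common in this list. Of 27740 windows of 109 kb, the length used at PTGS2, 78.9% held none. The list records only sites past the p-value threshold, and no listed peak had fewer than 11 fragments over its summit. Weaker KMT2D signal at PTGS2 was therefore not detectable from it.

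**Figure D4:**
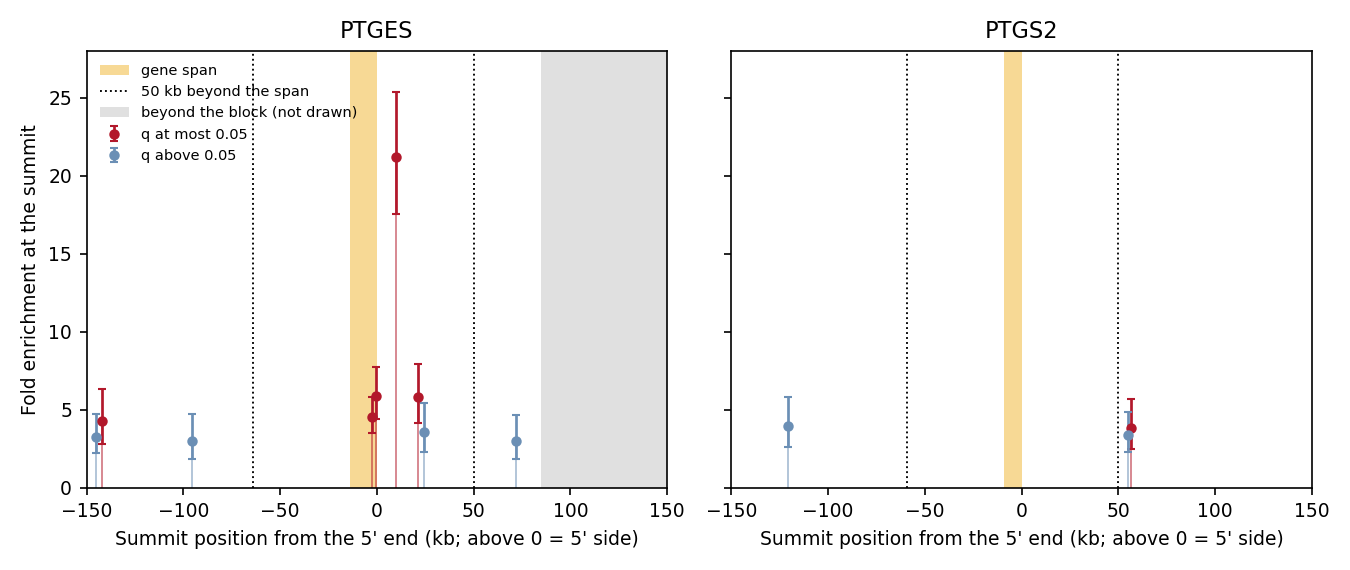
Fold enrichment at the summit (y axis) of KMT2D peaks around the 5′ ends of PTGES (left, block peaks only) and PTGS2 (right), with distance in kb (x axis), 95% Poisson intervals as bars, peaks with a q-value of at most 0.05 in red and others in blue, gene spans in yellow and dotted lines 50 kb beyond the spans (grey lies beyond the block). PTGES has 5 peaks between the dotted lines, from 3.56 to 21.2, and PTGS2 has 0, with its nearest peaks at 3.38 and 3.82.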

How the data were processed

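Alignment by the authors was to hg19 (GRCh37), using Bowtie2 and uniquely mapped reads. MACS2, run with a p-value cutoff, gave the peak list of 1 library, with no pooling stated. The deposited columns are a score (10 times the −log10 p-value, whole part, in 100% of lines), a fold enrichment (ratio), and the −log10 of the p-value and of the q-value. The highest p-value was 0.00984.

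The number of ChIP fragments at a summit, and its local background, were solved from fold enrichment and p-value, since MACS2 computes both from these quantities. Each fragment counted 0.3806 after scaling, the background over the genome was 1.095 on that scale, and a whole number of fragments matched every peak (largest gap in −log10 p 0.00056). In simulated lists of 5202 and 5862 peaks, 100% of fragment numbers were recovered. Those lists were made with the same arithmetic, so they check the solving and not how the deposited list was made. The background was taken as known, so no interval includes its error, and the control is not named in the sources used here.

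The reference at hand was GRCh38, and 13 of 23 chromosomes carried a peak beyond its end, so no annotation was joined to peaks, no coordinate was converted, and the other genes of the prostaglandin pathway were not analysed here. For the same reason the cell line was not checked against marker genes. Gene spans in hg19 were used to the nearest kb. Members, windows and gene lists were chosen with earlier results of these data known. Peaks named by rule were those within 50 kb of either gene and the 10 highest of the block. Others were described as the nearest to PTGS2, as lying just outside the block, or as lowest in fragments or highest in background within it. No test was run. Positions are counted from 1. Scripts ran in Python 3.11.15 with pandas 2.3.3 and numpy 2.4.6. Poisson intervals came from scipy 1.17.1, and plots from matplotlib 3.10.9.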

Additional observations from a re-analysis of the deposited data

How the results depend on the processing

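Among 25 alternatives, 16 left the result within its spread or within 1.5 times the main count, and 9 moved it. No paired analysis was possible because only 1 library was at hand. With a q-value of at most 0.01 the block held 16 peaks in place of 26, and the ratio of its peak density to the rest of chromosome 9 was 15.9 in place of 10.8. The number of peaks within reach of PTGS2 was 0 at 20 and 50 kb and 2 at 100 kb. Block peaks of at least 5-fold numbered 14, and those wider than 500 and 2000 bp numbered 13 and 2, beside 5 and 8 under the thresholds of 10-fold and 1000 bp. Clusters numbered 2 with gaps of up to 5 kb, 2 among peaks with a q-value of at most 0.05 and 1 with at least 5 peaks, in place of 4. Stricter thresholds give fewer peaks and clusters by construction. With 1 library, which of the weaker peaks would recur cannot be known.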
